A study of Mus musculus with 21 samples.

Results

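Full-grown mouse oocytes in which both floxed Kif11 alleles are removed by Cre were compared with control oocytes over all genes counted. The comparison holds 8 of the 21 libraries of the series, chosen by their genotype labels. On 1 side are the libraries labelled FloxFlox, Gdf9-Cre (2 libraries) and FloxFlox, Zp3-Cre (2 libraries), called fl/fl here. On the other are the 4 libraries labelled WtFlox without Cre, called wt/fl. Counts come from the table in which every gene, Kif11 included, was counted over all its exons.

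The wt/fl oocytes carry a wild-type and a floxed Kif11 allele and no Cre. The fl/fl oocytes carry 2 floxed alleles and a transgene that makes Cre from the promoter of Gdf9 or of Zp3, both of which are active in oocytes, so other cells of the mouse keep the gene. Gdf9-Cre begins to act in primordial follicles and Zp3-Cre later, in growing oocytes. The floxed allele was made in C57BL/6 mice, and the strain of each Cre line is not given in the sources used here. Females of 3 to 4 months were given gonadotropin 48 h before oocytes at the germinal vesicle stage were collected. Each library was made from 3 oocytes, and each mouse gave 1 or 2 libraries. Libraries of a genotype may therefore share a mouse, and the p-values measure the spread between libraries, part of which may be technical. The study's methods describe 17 libraries, and the 4 fl/fl libraries are not among them. Genotype, Cre driver and set of libraries thus differ together between the sides and cannot be told apart.

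KIF11 is a plus-end directed kinesin of the kinesin-5 family that slides antiparallel microtubules apart and builds the bipolar spindle. A full-grown oocyte is arrested in prophase of meiosis I, is largely silent in transcription and lives on messenger RNA stored during growth, which is translated, polyadenylated or degraded as meiosis goes on. A level measured at this stage therefore reflects both what was made during growth and what was kept.

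The total count per library lay between 7801470 and 10759741 in fl/fl and between 12729969 and 14283549 in wt/fl, so the fl/fl libraries were shallower. The 10 highest genes took between 5.02% and 5.98% of the counts in fl/fl and between 6.23% and 6.73% in wt/fl. Scaled to the depth of the shallowest library, 18543.3 ± 318 genes were expected with a count in fl/fl and 17799.8 ± 165 in wt/fl (SD, n = 4 each), with ranges of 18271.2 to 18967.7 and 17668.4 to 18039.4. More genes were thus detected in every fl/fl library than in every wt/fl library, by a mean of 744 genes (exact permutation test of the means, two-sided, p = 0.0286, which is the lowest value possible with 4 libraries per side). Some other libraries of the series reached the fl/fl range, such as wt/fl Spo11-Cre replicate 3 at 18614.6 and fl/del Spo11-Cre replicate 2 at 18546.5. Others did not, such as fl/del replicate 1 at 18060.7. Levels are given as CPM, the count of a gene scaled to a library total of 1000000 counts. Fold changes come from edgeR's quasi-likelihood test on all 21 libraries, as log2, and adjusted p is by Benjamini-Hochberg over 23225 genes. The standard error (SE) was computed as the size of the log2 fold change over the square root of the F statistic. A gene is called when its adjusted p is under 0.05, and the groups are said not to overlap when all 4 libraries of a side lie above all 4 of the other.

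Markers of oocytes were high on both sides. The summed level of 12 oocyte genes, among them the zona pellucida and Gdf9 genes, was between 33910 and 42457 CPM in fl/fl and between 35990 and 44626 CPM in wt/fl (two-sided exact permutation test, p = 0.629), although H1foo, Zp1 and Zp3 of this list were called lower. The 18 granulosa and cumulus genes summed to between 416 and 559 CPM in fl/fl and between 490 and 566 CPM in wt/fl (exact permutation test, p = 0.2), with Foxl2 and Wt1 at 0 in all 8 libraries. The 10 leukocyte genes summed to between 52.2 and 64.3 CPM against 35.9 to 62.3 CPM (exact permutation test, p = 0.4), with Ptprc, Cd52, Cd74, Lyz2 and Tyrobp at 0. The 12 theca and stroma genes summed to between 4.27 and 11.1 CPM against 3.50 to 5.47 CPM (exact permutation test, p = 0.229), with Col1a1, Col1a2, Col3a1, Insl3 and Lum at 0. The 6 endothelial genes summed to between 24.5 and 36.7 CPM against 33.5 to 45.2 CPM (exact permutation test, p = 0.143), with Cdh5 and Emcn at 0. The 6 genes of red blood cells did not pass 0.314 CPM in sum in any library, and the 4 globin genes were at 0. None of the marker genes of cells other than the oocyte was called by edgeR. At an unadjusted p under 0.05 there was 1 granulosa gene, 2 theca and stroma genes and 1 endothelial gene, and DESeq2 called 1 endothelial gene lower.

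Of 23225 genes tested, 237 rose and 410 fell in fl/fl, together 647 or 2.79%. The genes that rose were 1.02% of those tested, and the genes that fell were 1.77%. Of all genes at 1 CPM or more, 1.74% rose and 3.0% fell, and the counts for gene lists below stand beside these shares. Most changes were small. The median change was 1.62-fold among genes that rose and 1.42-fold among genes that fell, and 59 rose and 41 fell by 2-fold or more. A mean of at least 5 CPM over the 8 libraries was reached by 224 of the genes that rose and 393 of those that fell. The groups did not overlap for 1425 genes, or 6.14% of those tested, of which 961 were higher and 464 lower in fl/fl. Among the called genes, 185 of the higher and 220 of the lower did not overlap. In 80 of the higher and 68 of the lower, the 4 fl/fl libraries also lay outside the range of all 17 other libraries of the series, which include the genotypes with Spo11-Cre or a deleted allele. The number of calls depends on single libraries. Without Zp3-Cre replicate 1, 118 genes rose and 185 fell, and without Zp3-Cre replicate 2 the counts were 506 and 847. A fit of only the 8 libraries, for genes with a count in at least 3 of them, gave 116 and 122. Named genes were recomputed in up to 19 alternatives, which change a setting, keep a single driver or leave out a library, and the number in which a call was lost is given where the call was not stable.

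The GC content of the transcripts moved with the calls. The median GC content was 45.43% for genes that rose, 49.98% for genes that fell and 48.41% for genes not called, all at 1 CPM or more. In the fifth of genes with the lowest GC content, 3.22% rose and 2.0% fell, and in the fifth with the highest 1.00% rose and 3.55% fell. With a correction for GC content in each library, added after seeing the data, 260 genes rose and 380 fell.

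**Figure D1:**
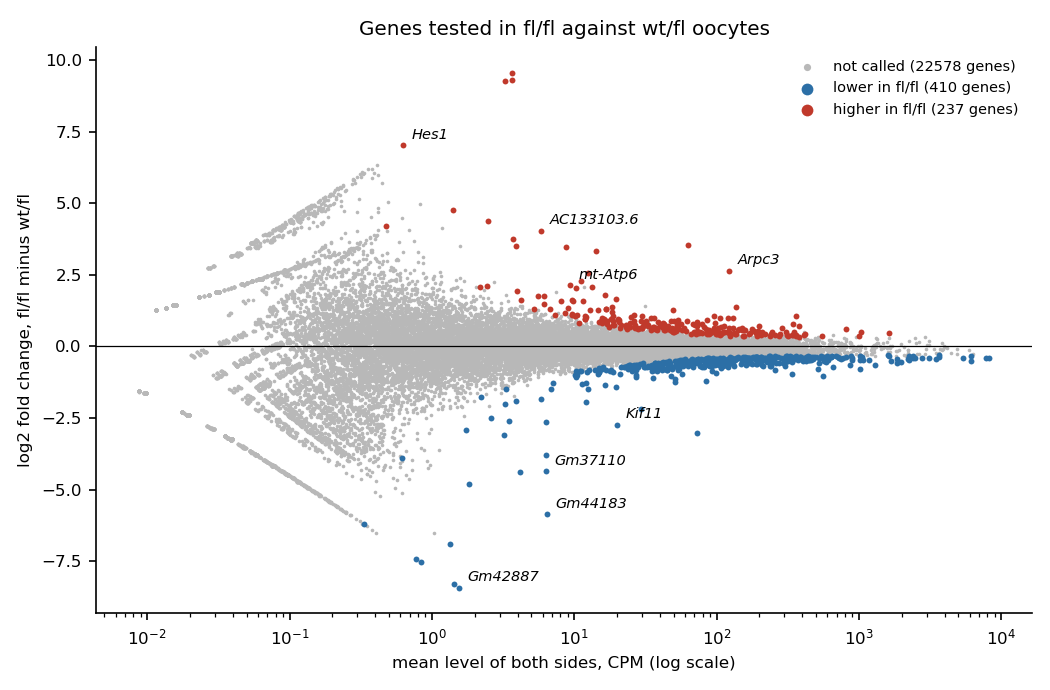
Mean level over the 8 libraries (x axis, CPM, log scale) against the log2 fold change of fl/fl to wt/fl (y axis) for 23225 genes, with the genes that rose, the genes that fell and the 22578 others in separate colours. Of the called genes 59 rose and 41 fell by 2-fold or more, with Arpc3 at 2.64 and Kif11 at -2.73.

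Kif11 (ENSMUSG00000012443, GRCm38 chr19:37376403-37421859, plus strand), the targeted gene, was low in every fl/fl library. Its level was 5.11 and 4.90 CPM with Gdf9-Cre and 7.95 and 4.27 CPM with Zp3-Cre, against 38.9, 43.2, 23.8 and 32.2 CPM in wt/fl. The highest fl/fl library was thus below the lowest wt/fl library, in accord with the labels. The mean was 5.56 ± 1.63 CPM in fl/fl and 34.5 ± 8.46 CPM in wt/fl (SD, n = 4 each), a log2 fold change of -2.73 (SE 0.25, edgeR quasi-likelihood adjusted p = 3.29e-12). The change was -2.85 with Gdf9-Cre and -2.61 with Zp3-Cre, each against the same wt/fl libraries. With Kif11 counted over exon 22 alone, the log2 fold change was -1.31 (SE 0.404, edgeR adjusted p = 0.06) and the call was lost. The paper reports that reads of the last Kif11 exon stayed detectable with Gdf9-Cre or Zp3-Cre and were much fewer with Spo11-Cre. Of 9 genes tested beside Kif11 on chromosome 19, only Cpeb3, a regulator of stored messenger RNA, was called. Tnks2, Hhex and Ide, which lie close to Kif11, had log2 fold changes of 0.16, 0.15 and -0.32 and did not pass the test.

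**Figure D2:**
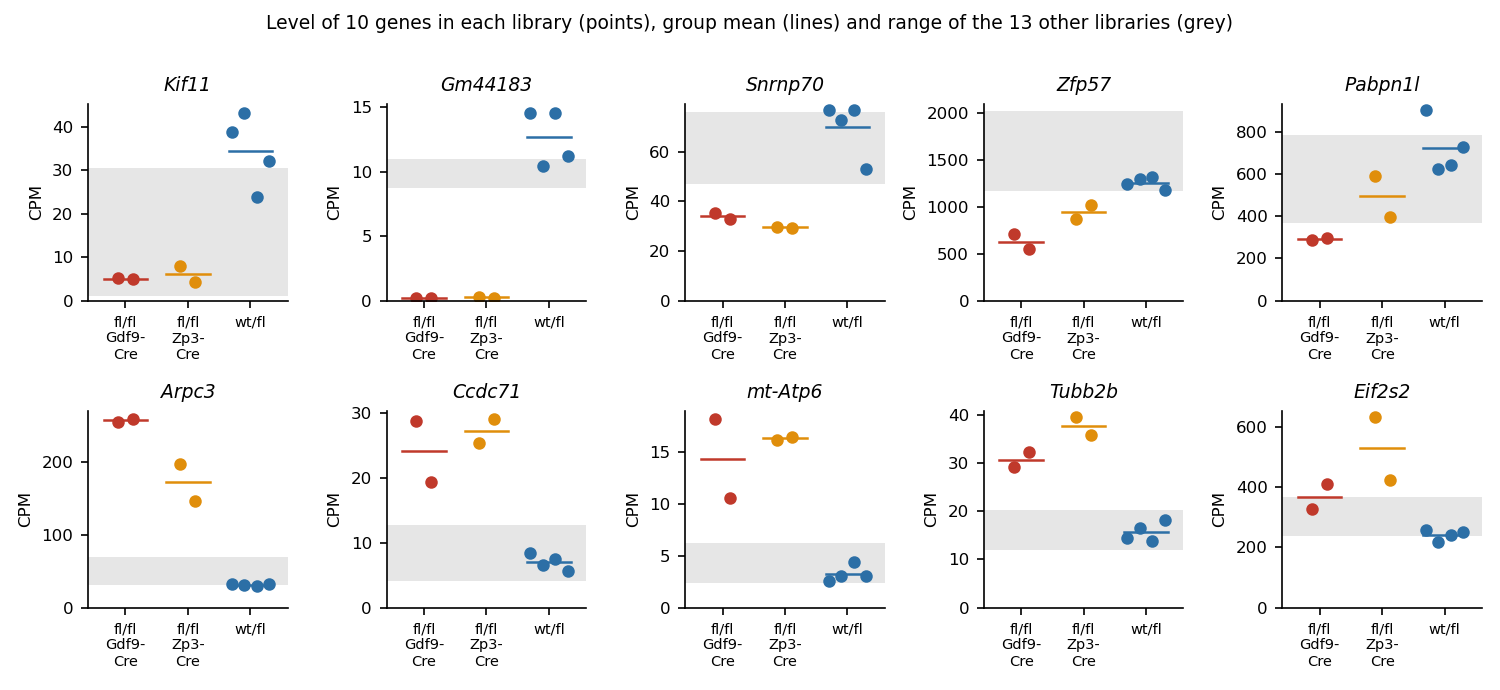
Level in CPM (linear axis from 0) in each fl/fl and wt/fl library for Kif11 and 9 other genes named in the text. Points are libraries, lines are group means and the grey band is the range of the 13 other libraries of the series. Arpc3 lies at 146 to 259 CPM in fl/fl, above every other library, and Gm44183 at 0.186 to 0.256 CPM, below every other library.

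Among the motors and tubulins, 5 of 38 kinesin genes fell and none rose (1 higher at an unadjusted p under 0.05, 0 by DESeq2). They were Kif11 and 4 kinesins that act on chromosomes or at the spindle midzone, namely Kif22, Kif20a, Kif20b and Kif23. For Kif20b and Kif23 the libraries of the sides overlapped. Kif20b was at 292 and 230 CPM with Gdf9-Cre and 107 and 174 CPM with Zp3-Cre, against 214 to 257 CPM in wt/fl. Kif23 was at 764 and 599 CPM with Gdf9-Cre and 462 and 552 CPM with Zp3-Cre, against 681 to 738 CPM in wt/fl. Kif22, which binds chromosome arms, was at 501, 430, 444 and 560 CPM in fl/fl and at 612 to 696 CPM in wt/fl, a log2 fold change of -0.51 (SE 0.10, edgeR adjusted p = 0.000754) without overlap. The 13 other libraries of the series held 447 to 606 CPM of Kif22, which overlaps fl/fl and is below every wt/fl library. The libraries of Kif20a overlapped, with 91.0, 51.8, 55.2 and 140 CPM in fl/fl and 107 to 139 CPM in wt/fl (log2 fold change -0.60, edgeR adjusted p = 0.0213), and the call was lost in 7 of 19 alternatives. For Kif20a the 13 other libraries held 78.4 to 117 CPM, with a median of 92.5 CPM. The kinesins summed to between 2407 and 3218 CPM in fl/fl and between 3176 and 3313 CPM in wt/fl, and their median log2 fold change was -0.14, against -0.03 over all genes tested. Leaving out single libraries gave 2 to 7 kinesins lower. Of 22 tubulin genes, Tubb2b rose and Tubb6 fell. Tubb2b, a beta-tubulin best known from neurons, was at 29.2, 32.2, 39.5 and 35.8 CPM in fl/fl and at 14.5, 16.6, 13.9 and 18.1 CPM in wt/fl, a 2.03-fold rise (edgeR adjusted p = 0.000395). All 4 fl/fl libraries lay above the 17 others of the series. Tubb6 was at 715 to 775 CPM in fl/fl and 755 to 1071 CPM in wt/fl, with overlapping groups and a log2 fold change of -0.35, and lost its call in 10 of 19 alternatives.

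In the list of spindle assembly and microtubule organizing centre genes, 5 of 47 fell and 1 rose. The genes that fell were Tpx2, Aurka, Tacc3, Nedd1 and Dlgap5, which nucleate microtubules or hold the spindle together, at log2 fold changes of -0.36, -0.35, -0.40, -0.43 and -0.45. The adjusted p of each was between 0.0226 and 0.0457, and none of the 5 was called without Zp3-Cre replicate 1 or without Gdf9-Cre replicate 2. Clasp2, a microtubule plus-end protein, rose at 1.11 on the log2 scale from a low level, with 11.9, 5.87, 15.3 and 7.94 CPM in fl/fl and 3.11 to 6.56 CPM in wt/fl, and lost its call in 10 of 19 alternatives. Of 41 genes of the kinetochore and spindle checkpoint, Cenpk, Cenpq and Ska1 rose and Cenpe, Spdl1 and Cenpm fell. Leaving out single libraries gave 0 to 2 higher and 1 to 9 lower, and the fit of 8 libraries called 0 of the list. Cenpk and Spdl1 each lost the call in 7 of 19 alternatives and Cenpe in 5. Cenpk, a part of the inner kinetochore, was at 117, 102, 106 and 86.1 CPM in fl/fl and at 62.0 to 78.9 CPM in wt/fl, without overlap. Cenpe, a kinesin motor of the kinetochore, was at 459 and 386 CPM with Gdf9-Cre and 227 and 266 CPM with Zp3-Cre, against 379 to 471 CPM in wt/fl. The Zp3-Cre libraries alone lay under the control range, and the difference between the drivers was itself called (log2 difference 0.807, SE 0.145, edgeR adjusted p = 0.000473).

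Genes of meiotic arrest and resumption held 3 that fell and none that rose of 39 (3 higher at an unadjusted p under 0.05, 2 by DESeq2). For this list and the next, the shares over all genes at 1 CPM or more were 1.74% higher and 3.0% lower. Ccnb1, the cyclin B1 subunit of the maturation-promoting kinase, was at 2109, 1718, 1507 and 2411 CPM in fl/fl and at 2320 to 2709 CPM in wt/fl (log2 fold change -0.47, edgeR adjusted p = 0.00704). Cdc27 and Anapc5, subunits of the anaphase-promoting complex that marks cyclin B1 for destruction, had log2 fold changes of -0.51 and -0.46. The calls of Ccnb1, Anapc5 and Cdc27 were lost in 6, 10 and 1 of 19 alternatives. Of 35 genes of cohesin, synapsis and recombination, Smc3, a ring subunit of cohesin, and Brca2 fell, whereas the median of this list was 0.17, and they lost the call in 3 and 6 of 19 alternatives. Smc3 was at 390 and 369 CPM with Gdf9-Cre, within the wt/fl range of 304 to 401 CPM, and at 170 and 227 CPM with Zp3-Cre, below it. Cdc27 had the same pattern, with 385 and 347 CPM with Gdf9-Cre and 194 and 195 CPM with Zp3-Cre.

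Of all genes tested, the smallest adjusted p belonged to a gene of actin assembly. Arpc3 (ENSMUSG00000029465, GRCm38 chr5:122391878-122414184, plus strand) encodes a subunit of the Arp2/3 complex, which nucleates branched actin filaments. Its level was 255 and 259 CPM with Gdf9-Cre and 198 and 146 CPM with Zp3-Cre, against 33.0, 31.6, 29.6 and 31.9 CPM in wt/fl. No fl/fl library came near a wt/fl library, and the 13 other libraries of the series were between 31.1 and 69.4 CPM. The means were 214 ± 53.3 and 31.5 ± 1.41 CPM (SD, n = 4 each). The rise estimated by edgeR was 6.25-fold, a log2 fold change of 2.64 (SE 0.16, edgeR adjusted p = 8.37e-20). Of the other subunits, Arpc1b fell, at a log2 fold change of -0.52, and none of the 5 remaining Arpc genes at 1 CPM or more was called by edgeR or DESeq2, against 2 at an unadjusted p under 0.05. This set was looked at after the values were seen. In the list of 28 actin nucleation genes, Rab11a and Wasl also rose, at 0.38 and 0.37 on the log2 scale. Cfl1, the actin-severing protein cofilin, fell with Arpc1b, at 367 to 440 CPM in fl/fl and 498 to 555 CPM in wt/fl without overlap. The calls of Arpc1b and Cfl1 were lost in 4 and 2 of 19 alternatives.

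Among the coding genes with the largest falls, Snrnp70 and Rbm38 were called in all 19 alternatives. Snrnp70, the U1 snRNP protein that helps define the 5′ splice site, was at 35.3, 33.1, 29.7 and 29.4 CPM in fl/fl and at 76.8, 72.7, 77.0 and 52.9 CPM in wt/fl. The fl/fl libraries were tightly grouped below all 17 others, a fall of 2.34-fold (log2 fold change -1.22, SE 0.14, edgeR adjusted p = 2.16e-08). Of 28 snRNP and SF3 proteins at 1 CPM or more, a set looked at after the values were seen, Snrnp27, Snrpb2 and Snrpd3 rose and Snrnp70, Snrpa and Sf3a2 fell, with a median of -0.0144. Rbm38, which binds and stabilizes messenger RNA, was at 44.8, 37.3, 65.1 and 68.4 CPM in fl/fl and at 90.4 to 140 CPM in wt/fl (log2 fold change -1.21, SE 0.13, edgeR adjusted p = 2.57e-09). Raly, an RNA-binding protein of the hnRNP family, was at 5.86, 2.50, 11.9 and 8.91 CPM against 14.8, 12.6, 12.0 and 31.1 CPM, with the highest fl/fl library just under the lowest wt/fl library, and was not called with Zp3-Cre alone (edgeR adjusted p = 0.17). Of the other coding genes with the largest falls, the septin gene Sept14 was at 7.90, 12.0, 7.95 and 17.2 CPM in fl/fl and at 26.7 to 29.8 CPM in wt/fl, a fall of 2.68-fold. Sept14 did not overlap between the sides, and the 13 other libraries lay below wt/fl as well, at 10.9 to 23.2 CPM. The groups did not overlap for Tex16, St6galnac3 and Ocm either, at log2 fold changes of -1.49, -1.29 and -1.28 and levels up to 19.3 CPM, and they lost the call in 4, 2 and 2 of 19 alternatives.

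Of the coding genes that rose most, Ccdc71 was at 28.9, 19.5, 25.5 and 29.2 CPM in fl/fl and at 8.40, 6.52, 7.51 and 5.62 CPM in wt/fl, a 3.45-fold rise (edgeR adjusted p = 3.49e-06) above all 17 other libraries. Anp32e, a chaperone that removes the histone variant H2A.Z, was at 7.16, 4.90, 11.9 and 11.2 CPM against 1.06 to 3.43 CPM, a log2 fold change of 1.76, and lost its call in 2 of 18 alternatives. Ubqln2, an X-linked ubiquitin receptor of the proteasome, was at 16.3, 26.7, 49.7 and 16.7 CPM against 8.01 to 10.9 CPM, with Zp3-Cre replicate 1 the highest, and was not called without that library (edgeR adjusted p = 0.0713). Ctnnd1, which encodes p120-catenin of the cell junction, was at 6.13, 5.77, 21.4 and 4.40 CPM against 1.10 to 4.17 CPM, again with Zp3-Cre replicate 1 the highest. The call of Ctnnd1 was lost in 9 of 18 alternatives, and without that library the log2 fold change was 0.751 (edgeR adjusted p = 0.617).

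Among 42 genes of oocyte identity and the zona pellucida, 2 rose and 3 fell. Zfp57, a zinc finger protein that guards methylation at imprinted genes, was at 706, 547, 869 and 1016 CPM in fl/fl and at 1243, 1291, 1315 and 1182 CPM in wt/fl. The groups did not overlap, and the fall was 1.74-fold (log2 fold change -0.80, SE 0.11, edgeR adjusted p = 6.63e-07). Tet3, the oxidase of methylated cytosine in the egg, rose at 0.51 on the log2 scale, with Zp3-Cre replicate 2 at 170 CPM inside the wt/fl range of 145 to 177 CPM, and was not called without Zp3-Cre replicate 1 (log2 fold change 0.276, edgeR adjusted p = 0.304). Of the genes whose promoters drive Cre, Gdf9 did not pass the test (log2 fold change -0.10, SE 0.12, edgeR adjusted p = 0.772). Zp3 was at 3724, 3452, 2897 and 3336 CPM in fl/fl and at 3436 to 4456 CPM in wt/fl (log2 fold change -0.32, edgeR adjusted p = 0.0418), with overlapping groups. This call was lost in 9 of 19 alternatives, among them Gdf9-Cre alone (log2 fold change -0.199, edgeR adjusted p = 0.516).

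Among called genes without overlap, the largest falls in CPM were those of H1foo, Tcl1, Obox2, Fbxw24 and Umodl1. H1foo, the linker histone of oocytes, was at 6682, 8094, 7451 and 7243 CPM in fl/fl and at 8932 to 9414 CPM in wt/fl, a fall of 1.33-fold without overlap (edgeR adjusted p = 0.00112). Tcl1, a maternal co-activator of AKT, was at 5084 to 5565 CPM in fl/fl and 6408 to 7512 CPM in wt/fl, a fall of 1.42-fold (edgeR adjusted p = 6.16e-05). In the clustered oocyte families of Oogenesin, Nlrp and Obox genes, 4 of 28 fell, none rose (1 at an unadjusted p under 0.05, 0 by DESeq2) and 5 had a positive change. These were Nlrp9b, Obox2, Oog3 and Obox1, at log2 fold changes of -0.73, -0.42, -0.42 and -0.41. Oog3, Obox2 and Nlrp9b lost the call in 6, 3 and 1 of 19 alternatives, and 3 to 14 of the family fell when single libraries were left out. The libraries of the sides overlapped for Oog3 and for Nlrp9b, the latter at 279 to 879 CPM in fl/fl and 699 to 904 CPM in wt/fl. Unique reads were counted, so copies of such families that are close to identical are uncertain. On the other side, Oosp3, a secreted oocyte protein, was at 941, 1342, 1241 and 1124 CPM in fl/fl and at 802 to 910 CPM in wt/fl, and lost its call in 10 of 19 alternatives. Sub1, a transcription coactivator that binds single-stranded DNA, rose from 738 to 892 CPM in wt/fl to 1093 to 1369 CPM in fl/fl, and Eloc, a subunit of elongin, rose at 0.49 on the log2 scale.

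Of 42 genes of messenger RNA storage and decay, Pabpn1l fell and Cpeb3 rose, where 1.74% of all genes at 1 CPM or more rose and 3.0% fell. Pabpn1l, a poly(A)-binding protein of oocytes with a part in the decay of maternal messenger RNA, was at 290 and 299 CPM with Gdf9-Cre and 591 and 396 CPM with Zp3-Cre, against 902, 626, 644 and 727 CPM in wt/fl. Every fl/fl library was below every wt/fl library, with the lower values in Gdf9-Cre, and the fall was 2.03-fold (log2 fold change -1.02, SE 0.13, edgeR adjusted p = 8.27e-08). The drivers differed here as well (log2 difference -0.704, SE 0.178, edgeR adjusted p = 0.0297). Cpeb3 was at 17.5, 18.3, 36.0 and 16.5 CPM in fl/fl and at 8.88 to 12.1 CPM in wt/fl, without overlap (log2 fold change 0.95, edgeR adjusted p = 0.0201), and was not called without Zp3-Cre replicate 1 (log2 fold change 0.658, edgeR adjusted p = 0.314).

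In the translation machinery, 4 of 85 cytosolic ribosomal protein genes rose and none fell (7 lower at an unadjusted p under 0.05, 2 by DESeq2). They were Rpl37a, Rps15a, Rps20 and Rpl36, and 67 of the 85 had a positive change, with a median log2 fold change of 0.16, which lay between -0.005 and 0.323 when single libraries were left out. This count moved from 0 to 18 when single libraries were left out, and was 0 without Zp3-Cre replicate 1 and without Gdf9-Cre replicate 2. Of 65 initiation and elongation factors, 4 rose and 3 fell, or 3 to 7 and 2 to 7 when single libraries were left out. Eif2s2, the beta subunit of eIF2, which brings the initiator tRNA to the ribosome, was at 326, 410, 633 and 425 CPM in fl/fl and at 258, 217, 240 and 250 CPM in wt/fl, a 1.71-fold rise without overlap (edgeR adjusted p = 2.25e-06). Eif3j1, Eif3c and Eif1b also rose, at log2 fold changes of 0.72, 0.54 and 0.43. Eif4a1, the helicase that unwinds the 5′ end of messenger RNA, was at 175 to 201 CPM in fl/fl and at 238 to 392.4 CPM in wt/fl, and fell 1.61-fold without overlap. Both called genes of eIF2B, the exchange factor of eIF2, fell, Eif2b1 at -0.48 and Eif2b3 at -0.39 on the log2 scale. Of 76 mitochondrial ribosomal protein genes, Mrpl32 rose at 0.53 on the log2 scale and kept its call in all 19 alternatives. Mrpl37 was called lower at -0.41 and lost its call in 15 of the 19. Over all genes at 1 CPM or more, 1.74% rose and 3.0% fell.

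**Figure D3:**
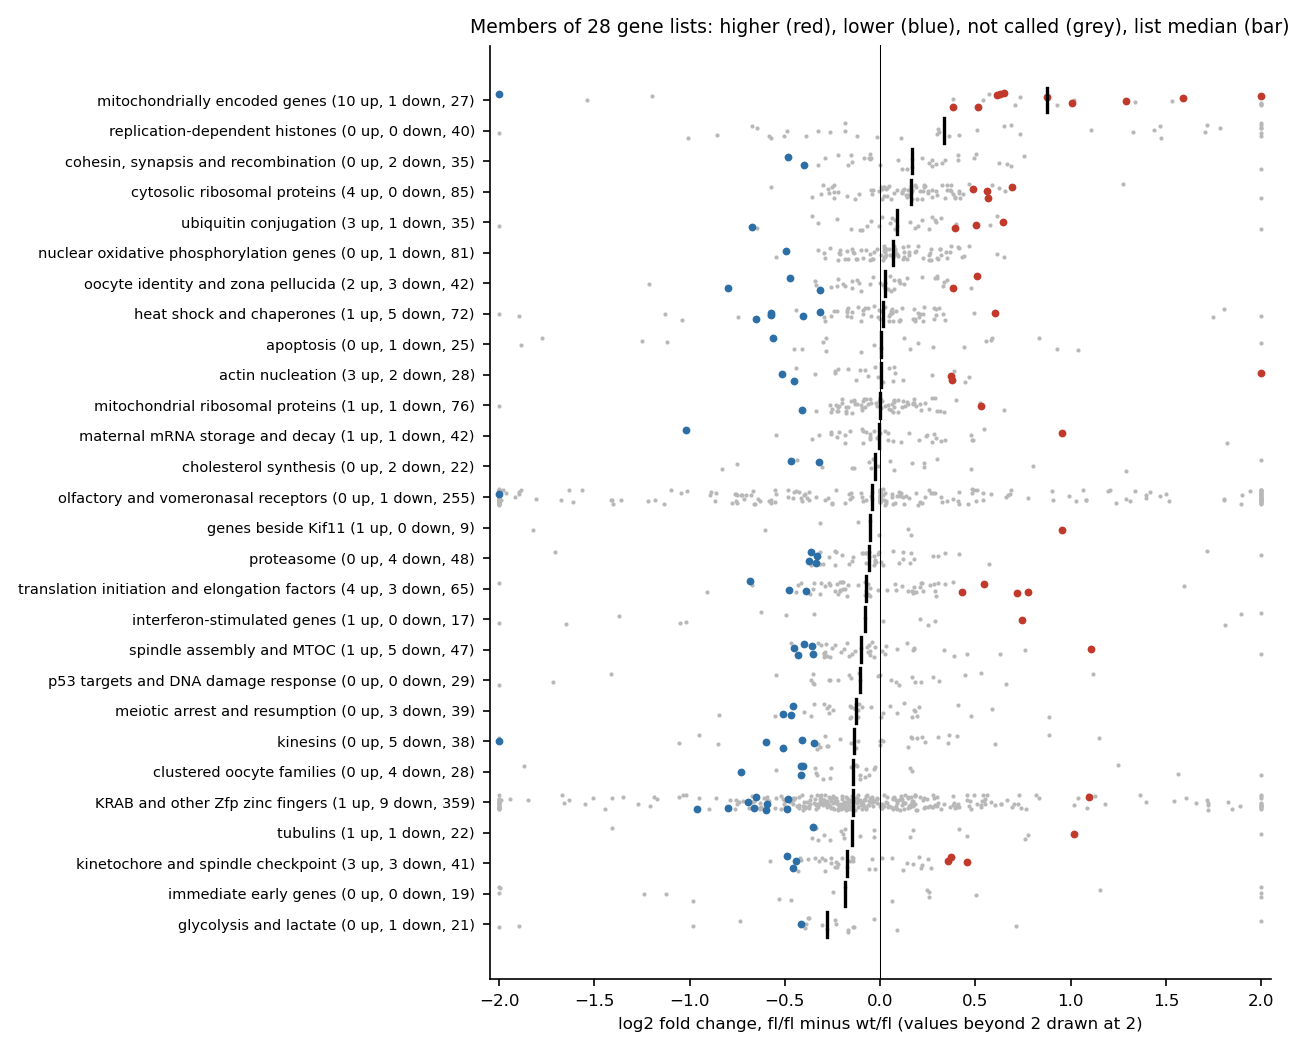
Log2 fold change of fl/fl to wt/fl (x axis) for the tested members of 28 gene lists, with called members coloured and the median of each list marked. Values beyond 2 on either side are drawn at 2. The mitochondrially encoded genes have a median of 0.87, and the medians of the other 27 lists lie between -0.28 and 0.33.

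Mitochondrially encoded genes had the largest share of calls among the 28 lists. Of 27 genes encoded there and tested, 10 rose, 1 fell and 24 had a positive change, with a median of 0.87, and 40.7% of the genes of this chromosome were called. The genes that rose were 8 subunits of the respiratory chain and ATP synthase and both ribosomal RNAs. mt-Atp6, a subunit of the proton channel of ATP synthase, was at 18.2, 10.6, 16.2 and 16.5 CPM in fl/fl and at 2.59, 3.06, 4.40 and 3.05 CPM in wt/fl, a 4.39-fold rise above all other libraries of the series (edgeR adjusted p = 2.34e-05). mt-Co2, a subunit of cytochrome oxidase, was at 16.0 to 21.3 CPM in fl/fl and at 4.79 to 6.37 CPM in wt/fl, a 3.01-fold rise without overlap. Only unique reads were counted, and 2 pseudogenes on chromosome 1 had like values. Gm10925 was at 11.4 to 20.3 CPM in fl/fl and 2.99 to 5.31 CPM in wt/fl. Gm28661, picked after its values were seen, was at 8.38 to 14.5 CPM and 1.72 to 6.02 CPM. Whether reads were exchanged between these pseudogenes and mt-Atp6 or mt-Co2 was not tested, so the size of both rises is uncertain. mt-Nd2, of complex I, was at 281, 119, 163 and 148 CPM against 98.2, 62.7, 96.8 and 71.2 CPM (log2 fold change 1.01, edgeR adjusted p = 2.22e-05).

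Of the more abundant mitochondrial messages, mt-Co1 and mt-Nd4 did not pass the test (edgeR adjusted p = 0.234 and 0.0513). mt-Cytb was at 1495, 756, 872 and 932 CPM against 430 to 852 CPM (log2 fold change 0.61), and mt-Co1 at 473 to 1097 CPM against 438 to 753 CPM (log2 fold change 0.38). Gdf9-Cre replicate 1 was the highest fl/fl library for each of the 11 protein-coding genes at 1 CPM or more. The methionine tRNA gene mt-Tm was the exception that fell, with 1.30, 0.00, 0.513 and 0.977 CPM against 2.10, 9.58, 8.87 and 2.42 CPM, and lost its call in 4 of 18 alternatives. The summed level of the group was between 2683 and 5104 CPM in fl/fl and between 1817 and 2814 CPM in wt/fl, which overlap. Leaving out single libraries gave 4 to 11 genes higher, and the fit of the 8 libraries alone gave 4. Poly(A) RNA was captured, and how much of each mitochondrial RNA is captured that way was not tested.

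**Figure D4:**
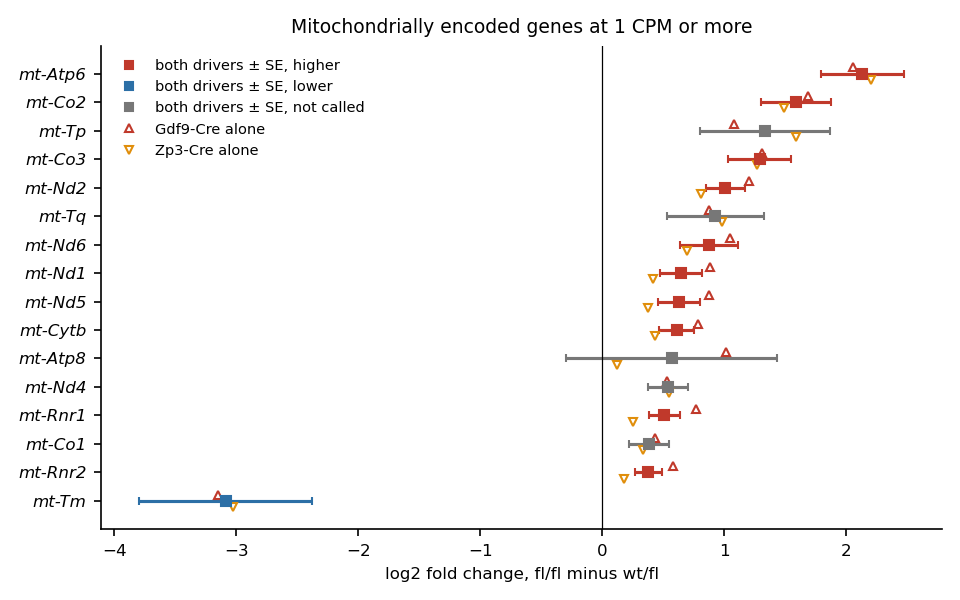
Log2 fold change of fl/fl to wt/fl with its SE (x axis) for the 16 mitochondrially encoded genes with a mean of at least 1 CPM, with triangles for each Cre driver alone against the same wt/fl libraries. mt-Atp6, mt-Co2 and mt-Co3 have changes of 2.13, 1.59 and 1.29, and mt-Tm lies at -3.09.

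Of 81 nuclear genes of the respiratory chain and ATP synthase tested, only Sdhc, an anchor subunit of succinate dehydrogenase, was called, and it was lower at a log2 fold change of -0.49, while the median was 0.06. With single libraries left out, 0 to 13 of these genes were higher and 0 to 2 lower, with a median between -0.0327 and 0.159. Of 21 glycolysis and lactate genes, 3 had a positive change and the median was -0.28, with Ldhb the only one called. Ldhb, the main lactate dehydrogenase of oocytes, was at 7316, 8124, 5420 and 6911 CPM in fl/fl and at 7874 to 9248 CPM in wt/fl (log2 fold change -0.42, edgeR adjusted p = 0.00413). Sdhc and Ldhb each lost the call in 4 of 19 alternatives. Of 22 cholesterol synthesis genes, Insig1 and Fdft1 were called lower, at -0.47 and -0.32, and lost the call in 13 and 14 of 19 alternatives.

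In protein turnover, 4 of 48 proteasome genes fell, namely Psmd4, Psmb6, Psmf1 and Psmc5, each by 1.29-fold or less, where 3.0% of all genes at 1 CPM or more fell. With single libraries left out 1 to 5 proteasome genes were lower, and in the fit of 8 libraries 0, and Psmd4, Psmb6 and Psmf1 lost the call in 7, 9 and 8 of 19 alternatives. Of 35 ubiquitin-conjugating enzymes, 3 rose and 1 fell. Ube2s, the enzyme that extends ubiquitin chains for the anaphase-promoting complex, was at 236, 202, 289 and 252 CPM in fl/fl and at 338, 380, 302 and 440 CPM in wt/fl, a fall of 1.59-fold without overlap (edgeR adjusted p = 2.47e-05). Ube2b, Ube2k and Ube2u rose, at 0.50, 0.39 and 0.65 on the log2 scale, and Ube2b and Ube2u lost the call in 4 and 13 of 19 alternatives. Of 72 heat shock and chaperone genes, 5 fell and 1 rose, or 3 to 7 and 0 to 2 when single libraries were left out. Hspa8, the constitutive HSP70, was at 1240, 910, 805 and 1206 CPM in fl/fl and at 1303 to 1703 CPM in wt/fl, a fall of 1.57-fold (edgeR adjusted p = 5.61e-05). Dnajb1 and Dnajc17, co-chaperones of HSP70, and Cct5 and Cct8 of the chaperonin also fell, whereas Hspe1, the mitochondrial co-chaperonin, rose at 0.60 on the log2 scale and lost its call in 4 of 19 alternatives.

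The lists of p53 targets, immediate early genes, apoptosis and interferon-stimulated genes held 2 called genes in all. None of 29 p53 target and DNA damage genes was called by edgeR, against 3 at an unadjusted p under 0.05 and 1 higher and 1 lower by DESeq2. None of 19 immediate early genes was called by edgeR or DESeq2, and 3 had an unadjusted p under 0.05. Of 25 apoptosis genes, only Birc3, an inhibitor of apoptosis, was called, and it was lower at 327 to 547 CPM against 578 to 654 CPM. The 13 other libraries held 425 to 608 CPM of Birc3. Of 17 interferon-stimulated genes, only Bst2, a tether of enveloped viruses, was called, and it rose 1.67-fold and lost its call in 7 of 19 alternatives. None of 40 replication-dependent histone genes was called by edgeR or DESeq2, and 6 had an unadjusted p under 0.05, at a median of 0.33 over all (-0.0226 to 0.448 when single libraries were left out) and -0.02 at 1 CPM or more. Of 359 zinc finger genes named Zfp, 9 fell and 1 rose, with a median of -0.14, and 3 to 38 fell when single libraries were left out. Zfp27 and Zfp184, both of low level, and Zfp951 and Zfp873 were among those that fell, and Zfp729b was the gene that rose, at 12.4 to 16.7 CPM against 5.46 to 7.27 CPM, with the call lost in 11 of 19 alternatives. Of 255 olfactory and vomeronasal receptor genes, 1 fell and none rose. The 28 lists together held 1629 tested genes, of which 94 were called, or 5.77%. At 1 CPM or more, 1.74% of all genes rose and 3.0% fell.

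By gene class, the calls were mostly protein-coding genes, with 192 higher and 375 lower of 15563. Of 2007 lincRNA genes 8 rose and 13 fell, of 3265 pseudogenes 19 rose and 10 fell, and of 1021 antisense genes 1 rose. Of 509 TEC models, which are still to be experimentally tested, 2 rose and 7 fell, and of 73 immunoglobulin and T cell receptor genes 3 fell. Protein-coding genes took 95.4% ± 0.174 of the counts in fl/fl and 95.8% ± 0.179 in wt/fl (SD, n = 4 each), and pseudogenes 1.267% ± 0.034 and 1.147% ± 0.026. Immunoglobulin and T cell receptor genes took 0.0755% and 0.0900%. For each of these 3 classes the libraries of the sides did not overlap, which gives the smallest p that an exact permutation test allows here (p = 0.0286, or 0.114 adjusted over 12 classes by Benjamini-Hochberg). The protein-coding genes of the mitochondrial genome took 0.415%, 0.186%, 0.237% and 0.270% of the counts in fl/fl and 0.127% to 0.232% in wt/fl (exact permutation test, p = 0.0571). Small RNA genes took 0.0336%, 0.0313%, 0.0431% and 0.0155% against 0.0116% to 0.0162%, a ratio of means of 2.21, with Zp3-Cre replicate 2 inside the control range (exact permutation test, p = 0.0571). The libraries overlapped for the shares of lincRNA, antisense and other long noncoding genes, with exact permutation p of 0.4, 0.4 and 0.143. By chromosome, 5 of 623 genes on chromosome 19, which holds Kif11, rose and 25 fell, together 4.82%, and of 895 genes on the X chromosome 9 rose and 4 fell, together 1.45%. On the other autosomes between 1.91% and 3.67% were called. The reads were counted against an annotation whose use of strand is not stated, so a gene and its antisense partner cannot be told apart.

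**Figure D5:**
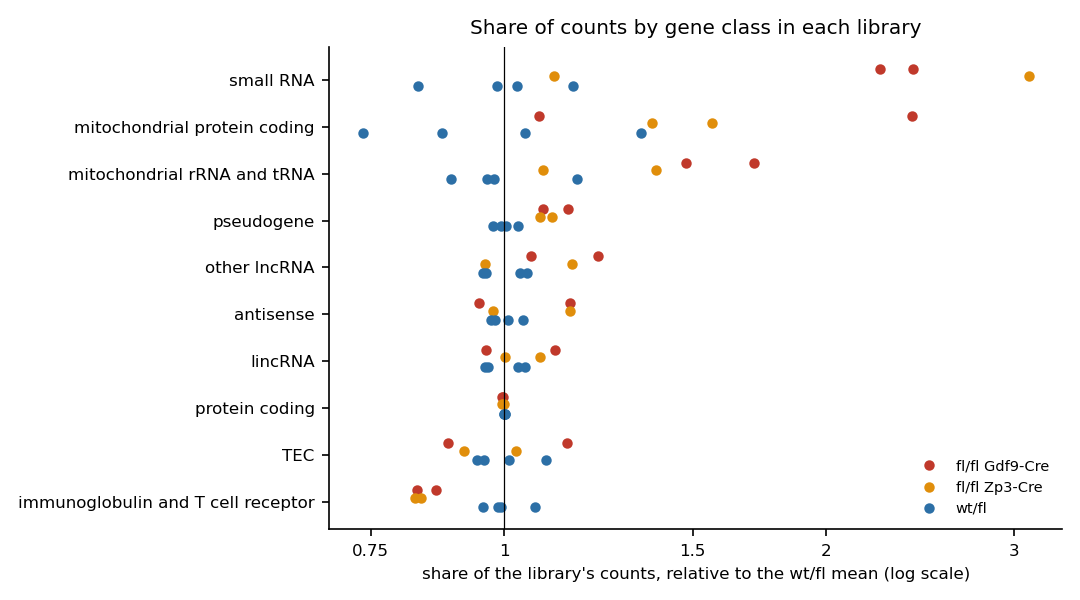
Share of counts in each gene class per library, relative to the wt/fl mean (log axis), for the 4 fl/fl and the 4 wt/fl libraries. Small RNA and mitochondrial genes lie highest in fl/fl, at ratios of means of 2.21, 1.605 and 1.42, and immunoglobulin and T cell receptor genes lie lowest, at 0.838.

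Some of the largest falls were in noncoding genes and in gene models without experimental support. Gm44183 (GRCm38 chr2:38564727-38566354, minus strand), a TEC model, was at 0.186, 0.218, 0.256 and 0.244 CPM in fl/fl and at 14.6, 10.4, 14.6 and 11.2 CPM in wt/fl. Together 8 counts in fl/fl stood against 677 in wt/fl (log2 fold change -5.86, SE 0.39, edgeR adjusted p = 5.91e-18), and the 13 other libraries held 8.72 to 11.02 CPM. The same held for Gm37110 (TEC, chr1:32485315-32486942) at 0.218 to 1.71 CPM against 9.55 to 14.002 CPM, and for the lincRNA gene Gm37724 (chr1:33065130-33066350) at 0.733 to 1.197 CPM against 9.63 to 14.5 CPM. Gm36958 (TEC, chr9:102764635-102766509) was at 0.733 to 2.82 CPM against 9.48 to 13.2 CPM. For Gm44183, Gm37110, Gm37724 and Gm36958 alike, each fl/fl library lay below the 17 others. Gm44183 and Gm37110 have the same exon length of 1628 bases and the same GC content of 46.13%. Whether these models are copies of a repeated sequence was not tested. As unique reads were counted, levels of copies close to identical are uncertain, and the models may not be independent. Of the noncoding genes that rose, E330020D12Rik was at 17.2, 18.6, 14.7 and 37.1 CPM against 3.01 to 5.99 CPM, although the 13 other libraries reached 20.7 CPM. Gm10925, a pseudogene on chromosome 1, rose 4.13-fold, and Gm1821 was the most abundant of them, at 442 to 546 CPM against 176 to 318 CPM. Reads of a pseudogene and its parent can be exchanged, which makes these values uncertain.

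Few genes were absent from a side. A gene was taken as absent when all 4 libraries of a side had 0 counts and all 4 of the other had a count, at a mean of at least 1 CPM. A count of 0 over a side allows up to 3 counts, which is 0.0835 CPM in fl/fl and 0.0566 CPM in wt/fl, and this limit covers counting error only. It takes counts as independent. Library totals were 1.92 to 1.95 times those of the table with Kif11 over exon 22. The wt/fl counts of Gm42887, named below, were 167 and 89 in these tables. Whether both mates of a pair were counted was not tested. If they were, the limit is too low and the folds given for absent genes are too high. By this rule 3 genes were absent from fl/fl. Gm42887 (TEC, chromosome 5) had 61, 25, 50 and 31 counts in wt/fl, at least 37.7-fold higher than in fl/fl (edgeR adjusted p = 1.32e-07). Olfr655, an olfactory receptor gene on chromosome 7 and the receptor gene called above, had 34, 16, 18 and 22 counts, at least 20.3-fold higher. Gm21244, annotated on the Y chromosome, had 24, 25, 13 and 20 counts, at least 18.54-fold higher. The call of Gm21244 was lost in 1 of 18 alternatives, the counts with Kif11 over exon 22 (edgeR adjusted p = 0.124). In those counts Gm21244 had 12 in wt/fl in sum, against 82 in the main counts. By the same rule, 2 genes rather than 3 were absent from fl/fl there. As these oocytes come from females, counts at a Y-annotated gene show that reads from elsewhere can be placed there. Each of the 3 genes had counts in all 13 other libraries.

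Only Hes1, a transcriptional repressor and target of Notch signalling, was absent from wt/fl at that level. It had 13, 12, 12 and 8 counts in fl/fl and none in wt/fl, at least 22.1-fold higher (edgeR adjusted p = 0.0272), and 8 of the 13 other libraries held a count. The call was lost in 8 of 18 alternatives, where the highest adjusted p was 0.0823. Without a minimum level, 18 genes were absent from fl/fl and 26 from wt/fl. These were near the limit of detection, at medians of 0.417 and 0.44 CPM on the side where they had counts, and 4 and 1 of them were called. Of the 18, 9 were protein-coding and 3 were TEC models, and of the 26, 13 were protein-coding and 7 were processed pseudogenes. Tmprss7 had counts in the 4 fl/fl libraries and in no other library of the series. These were only 2, 2, 3 and 8 counts, and the gene was not called (edgeR adjusted p = 0.242). As wt/fl was sequenced deeper, a gene present in fl/fl and at 0 in wt/fl was missed at the greater depth. Over all genes, 31222 were at 0 in the 4 fl/fl libraries, 31951 in the 4 wt/fl libraries and 29307 in all 8.

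Each driver was also compared alone with the 4 wt/fl libraries, which the comparisons share. With Gdf9-Cre 125 genes rose and 218 fell, and with Zp3-Cre 242 rose and 286 fell. Of the 237 genes that rose with both drivers together, 98 rose with Gdf9-Cre alone and 138 with Zp3-Cre alone. Of the 410 that fell, 169 fell with Gdf9-Cre alone and 182 with Zp3-Cre alone. Against each other, the drivers differed for 207 genes, or 0.891%, with 136 higher in Gdf9-Cre and 71 lower. Among the called genes, 4 of those that rose and 34 of those that fell differed between the drivers. Arpc3 rose by 2.95 with Gdf9-Cre and 2.34 with Zp3-Cre on the log2 scale, Snrnp70 had changes of -1.10 and -1.34, and mt-Atp6 of 2.06 and 2.21. For these 3 genes the difference between the drivers did not pass the test.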

How the data were processed

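Poly(A) RNA of 3 oocytes per library was amplified as full-length cDNA in 13 cycles and read as 150-bp pairs. After trimming by fastp, the authors mapped the reads on GRCm38 by HISAT2 2.2.1 and assigned unique reads to genes by featureCounts 2.0.3. The deposited values used here are these counts, without normalization, for 54232 genes, of which 54165 had a symbol in the reference annotation. How mates and strand were counted is not given in the sources used here. The deposited table with Kif11 over exon 22 served as an alternative, and the others were not used here.

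The quasi-likelihood model of edgeR 4.0.16 (R 4.3.3, with TMM, glmQLFit and glmQLFTest) was fitted over all 21 libraries by genotype, for genes with a count in at least 3 libraries, with the contrast of the mean of both fl/fl groups minus wt/fl. Single values were compared by exact permutation tests, and other computations used Python 3.11.15, scipy 1.17.1 and matplotlib 3.10.9. Scripts were first tested on simulated counts. Alternatives were DESeq2 1.42.0, RLE factors, other filters, the exon 22 table, the 8 libraries alone, a replicate block, each driver alone and leaving out each library. A GC correction (lowess, span 0.3) and sums of libraries with a common start of the name were added after seeing the data.

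Named genes are Kif11, Gdf9, Zp3, the largest changes per direction at 5 CPM or more without overlap (8 coding, 4 other), the 5 largest differences in CPM per direction, up to 8 absent genes per side and up to 3 called members of each of 28 lists at 1 CPM or more. Other genes are named with their lists, and genes or families picked after their values were seen are said to be so. The genotypes compared and the lists were chosen with earlier results of these data known, so they are no independent support. Amplified reads carry no molecular identifiers, and limits of detection cover counting error only.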

Additional observations from a re-analysis of the deposited data

Results flagged for a closer look

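In 4 of 180 groups of 4 libraries looked at, a library lay far from the other 3. The 95% critical value used would mark about 1 in 20 groups by chance. Part of the genes looked at were chosen because the sides did not overlap, so the number cannot be set against that rate. AC133103.6, on an unplaced scaffold, was at 0.897 CPM in fl/fl Zp3-Cre replicate 1 and at 13.8 to 15.2 CPM in the other fl/fl libraries. Ctnnd1 was at 21.4 CPM in fl/fl Zp3-Cre replicate 1 against 4.40 to 6.13 CPM in the other fl/fl libraries. Cpeb3 was at 36.0 CPM in the same library against 16.5 to 18.3 CPM. Raly was at 31.1 CPM in wt/fl replicate 4 against 12.0 to 14.8 CPM in the other wt/fl libraries.

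For 4 named genes the change differed between the Cre drivers by edgeR's quasi-likelihood test with Benjamini-Hochberg adjustment over all genes. As the log2 fold change with Gdf9-Cre minus that with Zp3-Cre, the difference was 0.807 for Cenpe (SE 0.145, adjusted p = 0.000473), 0.946 for Cdc27 (SE 0.153, adjusted p = 7.05e-05) and 0.962 for Smc3 (SE 0.152, adjusted p = 5.15e-05). It was -0.704 for Pabpn1l (SE 0.178, adjusted p = 0.0297). Each driver has 2 libraries, and whether the difference belongs to the driver or to single mice cannot be told apart.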

How the results depend on the processing

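The counts of called genes moved with the libraries and the tool. DESeq2 gave 440 higher and 669 lower, of which 26 fell by 2-fold or more. The fit of 8 libraries gave 116 and 122, Gdf9-Cre alone 125 and 218 (64 lower by 2-fold or more), Zp3-Cre alone 95 higher by 2-fold or more, and summing libraries with a common start of the name, chosen after seeing the data, 89 and 144. Leaving out single libraries gave 118 to 506 higher and 185 to 847 lower. By 2-fold or more, this gave 39 to 111 higher and 31 to 118 lower. The counts were 118 and 185 without Zp3-Cre replicate 1, 506 and 847 without Zp3-Cre replicate 2, 169 and 223 without Gdf9-Cre replicate 2 and 148 and 260 without wt/fl replicate 2, and without Gdf9-Cre replicate 1 63 fell by 2-fold or more. The cause was not tested, beyond that the fit of 8 and the leave-outs hold fewer samples. Of 90 named genes 89 were called, and 33 of them in every alternative run.

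Kif11 was at -1.31 (edgeR adjusted p = 0.06) with exon 22 alone, for which the cause was not tested, and between -2.95 and -2.55 when single libraries were left out. Without a minimum level 18 genes were absent from fl/fl and 26 from wt/fl, and leaving out single libraries gave 3 to 4 and 1 to 5. For shares of counts, fl/fl minus wt/fl in percentage points, leaving out single libraries gave -0.0159 to -0.0125 for immunoglobulin and T cell receptor genes, -0.446 to -0.314 for protein-coding genes and 0.105 to 0.131 for pseudogenes, each at an exact permutation p of 0.0571, the smallest that 3 against 4 libraries allow.

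Some signs reversed. These were the log2 fold change of Gdf9, at 0.0287 and 0.00896 without Zp3-Cre replicate 1 and without wt/fl replicate 4 (range over left-out libraries -0.238 to 0.0287), the share of TEC genes, at 9.69e-05 with the exon 22 table and at 0.00198, 0.00125 and 0.00164 without Gdf9-Cre replicate 1, Zp3-Cre replicate 2 and wt/fl replicate 1 (range -0.00402 to 0.00198), and the share of genes not in the annotation, at -6.73e-05 without Gdf9-Cre replicate 2 (range -6.73e-05 to 0.00135). Of the list medians printed, those of cytosolic ribosomal proteins, nuclear oxidative phosphorylation genes and replication-dependent histones changed sign when single libraries were left out.

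The replicate numbers share only a number, with correlations of deviations between -0.00284 and 0.0423, and the fit with the replicate block gave 311 higher and 513 lower, of which 211 and 381 were among the calls reported. RLE factors, the GC correction, other filters and the exon 22 table kept the counts between 237 and 309 higher and between 345 and 478 lower. Depth between 7801470 and 14283549 counts limits genes near 1 CPM most.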

Other observations

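The genes and families described here were chosen after their values were seen, and the values are given without a test of the choice. Of 40 called genes with a log2 change of 1.5 or more in size and a mean of at least 5 CPM on a side, the libraries of the sides overlapped for 11. Of these 11 genes, 6 lay in a stretch of chromosome 13 from 60422756 to 68999541 (GRCm38), where 174 genes were tested, 8 rose and 4 fell. Over all genes tested 1.02% rose and 1.77% fell, and of 1140 genes on chromosome 13 19 rose and 13 fell. The ends of the stretch were set by 2 of the picked genes, Gm35333 and Adcy2, so its count of calls is no independent result. The mouse that each fl/fl library came from and its strain at this stretch are not given in the sources used here. In each of the 6, Gdf9-Cre replicate 1 was at the level of wt/fl or close to it and the 3 other fl/fl libraries lay apart from it. The pseudogene Gm46426 was at 178.5 CPM in Gdf9-Cre replicate 1 and at 3.16, 1.80 and 1.83 CPM in the other fl/fl libraries, against 75.3 to 155.9 CPM in wt/fl. Adcy2, an adenylyl cyclase, was at 0.00 CPM in Gdf9-Cre replicate 1 and in wt/fl, and at 6.64, 15.5 and 7.21 CPM in the other fl/fl libraries. Ctsm-ps2, a cathepsin pseudogene, was at 0.00 CPM in the same libraries and at 12.4, 6.28 and 10.7 CPM in the other 3.

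The other 3 of the 6 genes had like values. The lincRNA gene Gm35333 was at 2.79 CPM in Gdf9-Cre replicate 1, at 23.2 to 31.6 CPM in the other fl/fl libraries and at 2.58 to 4.24 CPM in wt/fl. 1700001L19Rik, which lies beside Adcy2, was at 2.60 CPM against 21.6 to 26.7 CPM and 1.81 to 4.41 CPM. The antisense gene Gm47003 was at 3.53 CPM against 16.7 to 24.6 CPM and 0.157 to 4.45 CPM. Not all genes of the stretch followed this pattern, since Zfp729b was at 12.4 to 16.7 CPM in all 4 fl/fl libraries. Over all genes, 6 had Gdf9-Cre replicate 1 within 2-fold of the wt/fl range with the 3 other fl/fl libraries at least 4-fold outside it and a level of at least 2 CPM, 5 of them on chromosome 13 and the other, Mfhas1, on chromosome 8. The same rule named 0 genes for Gdf9-Cre replicate 2 and 1 gene for each Zp3-Cre library.

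Among gene families, 8 of 23 Fbxw genes at 1 CPM or more fell, at log2 fold changes of -0.583 to -0.325, where 3.0% of all genes at that level fell. Leaving out single libraries gave 3 to 12 Fbxw genes lower, and Fbxw24 lost its call in 12 of 19 alternatives. They are F-box genes with WD repeats, several of which lie in a cluster of oocyte genes. Of 12 integrator subunits, which process small nuclear RNA, Ints9, Ints10, Ints11 and Ints14 fell, the median of the family being -0.414, and 1 to 6 fell when single libraries were left out. Khdc1a and Khdc1c rose of 3 Khdc1 genes tested. On chromosome 2, Raly (154791096 to 154867261) fell and its neighbour Eif2s2 (154871410 to 154892935) rose. Mt1, a metallothionein, was at 491.6 CPM in Gdf9-Cre replicate 1 and at 0.7 to 2.9 CPM in the 7 other libraries.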
